A study of Danio rerio with 12 samples.

Results

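The genes described here encode the proteins of the cytosolic ribosome, measured in adult zebrafish hearts. They were taken from the array annotation by symbol: every gene whose symbol begins with rpl or rps and a digit, with rplp and a digit, or with rpsa, leaving out the rps6k kinase genes (5 symbols). Where a gene had several probe sets, the one with the highest mean over the 12 arrays stands for it. This gave 74 of the 8793 genes that the arrays measured under a single gene symbol. Sorted by symbol, 42 of the 74 genes were counted to the large subunit, 3 to its stalk (rplp0, rplp2 and rplp2b) and 28 to the small subunit. The 42 include rpl7l1 by its name only. The remaining gene, rps19bp1, shares the symbol pattern but encodes a binding partner of Rps19 and no subunit of the ribosome. It is described apart but stays in every count and median of the 74 genes.

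RNA from whole hearts of sexually mature adult fish was hybridised to 12 Affymetrix Zebrafish Genome Arrays, 3 in each of 4 groups. Unamputated and amputated wild-type (WT) fish were of the AB strain. Unamputated and amputated dnHIF1a fish, called dnHIF1a-expressing in the sample titles, carried the transgenes cmlc2a:Ert2-Cre-Ert2, cmlc2a:LnL:GFP and cmlc2a:LrL:dnHIF1a. The promoter of cmlc2a, now called myl7, is active in heart muscle and drives all 3: a Cre recombinase that tamoxifen switches on, a GFP cassette, and dnHIF1a, which by its name is a dominant negative version of the oxygen-sensing transcription factor HIF1a. Amputated hearts of both lines were taken 7 days after the operation, and unamputated fish had no treatment. The labels do not give the fish's age, the strain background of the transgenic line, whether tamoxifen was given, or whether the 3 arrays of a group hold separate animals or pools, so p-values measure the spread between these arrays only. The series asks what hypoxia signalling does in the regrowth of heart muscle, and the comparisons here ask how the ribosomal protein genes stand after amputation, in the dnHIF1a line, and in the combination.

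A cytosolic ribosome is built from a large (60S) and a small (40S) subunit, each a scaffold of ribosomal RNA with its own set of proteins, and is assembled mainly in the nucleolus with the help of many biogenesis factors. Ribosomal protein mRNAs are among the most abundant of most cells and begin with a terminal oligopyrimidine (TOP) tract, through which the growth kinase mTOR controls how often they are translated, so the amount of these mRNAs and the output of protein can part. A few of the genes are paralogs with a narrower expression or a role outside the ribosome, among them rpl22l1, rpl7l1 and rps27l.

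Values are the deposited log2 expression values after RMA, the robust multi-array average, so 1 unit is a doubling of signal. A log2 value is a level of hybridisation signal for 1 probe set and cannot be set against that of another gene. Array medians lay between 5.55 and 5.59, correlations of arrays within a group between 0.992 and 0.996, and the heart muscle gene myl7 between 14.58 and 14.80 on all arrays, while the 5 gonad markers stayed at 5.21 or lower. Of 5 liver markers, 4 stayed at 5.55 or lower, and the transferrin gene tfa averaged 7.38 in unamputated WT, 11.24 in amputated WT, 8.69 in unamputated dnHIF1a and 11.02 in amputated dnHIF1a hearts. Means over several lists of cell type markers moved with the groups. The 19 red blood cell markers averaged 7.12 to 7.50 in unamputated WT, 7.90 to 8.70 in amputated WT, 7.46 to 8.02 in unamputated dnHIF1a and 7.46 to 8.25 in amputated dnHIF1a hearts. The 15 macrophage and pan-leukocyte markers averaged 8.29 to 8.52, 8.95 to 9.27, 7.32 to 7.53 and 8.32 to 8.60 in the same order. The 9 epicardium and fibroblast markers moved the most after amputation, with group means of 7.40, 9.50, 7.87 and 9.16. Those of the 4 smooth muscle markers were 7.63, 8.59, 8.57 and 9.14, and those of the 5 neutrophil markers 7.33, 7.44, 6.23 and 6.99. The 9 heart muscle markers, myl7 among them, had group means of 12.61, 12.79, 12.74 and 12.91. Not all were as flat as myl7: myh7 averaged 8.36, 10.34, 10.40 and 11.74, and actn2b 13.08, 13.06, 12.57 and 12.50. In whole hearts, fewer cells of a type and less RNA per cell cannot be told apart.

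Nearly all ribosomal protein probe sets sat at the bright end of the arrays and hardly varied. Of the 74, 70 had a mean of 12 or more over the 12 arrays, a line drawn after the values were seen, and the dimmest of these 70 (rps26, mean 12.42) still gave more signal than 98.9% of all tested probe sets. These are places on the scale of signal, which bear on how well a probe set can show a change, and are no order of mRNA amounts. The probe set of rps2, a small subunit protein near the mRNA entry channel, ran from 14.09 to 14.24 over all arrays, against array maxima of 14.86 to 15.04. Those of rplp0 (13.99 to 14.21), rps4x (13.92 to 14.14), rps20 (13.75 to 14.00) and rpsa (13.83 to 13.95) were also near the top of that scale. Of the 74 genes, 69 spanned less than 0.5 log2 units from their lowest to their highest array. The median SD within groups was 0.054 for the 74 genes, 0.073 for the other 145 probe sets with means of 12 or more and 0.12 for all 15502 tested probe sets. The 4 genes under the line were rps19bp1 (mean 7.41), rpl7l1 (8.40), rps27l (9.53) and rpl22l1 (10.83), and the last 3 of these were among the 5 genes with a span of 0.5 or more, together with rpl21 and rpl27a.

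**Figure D1:**
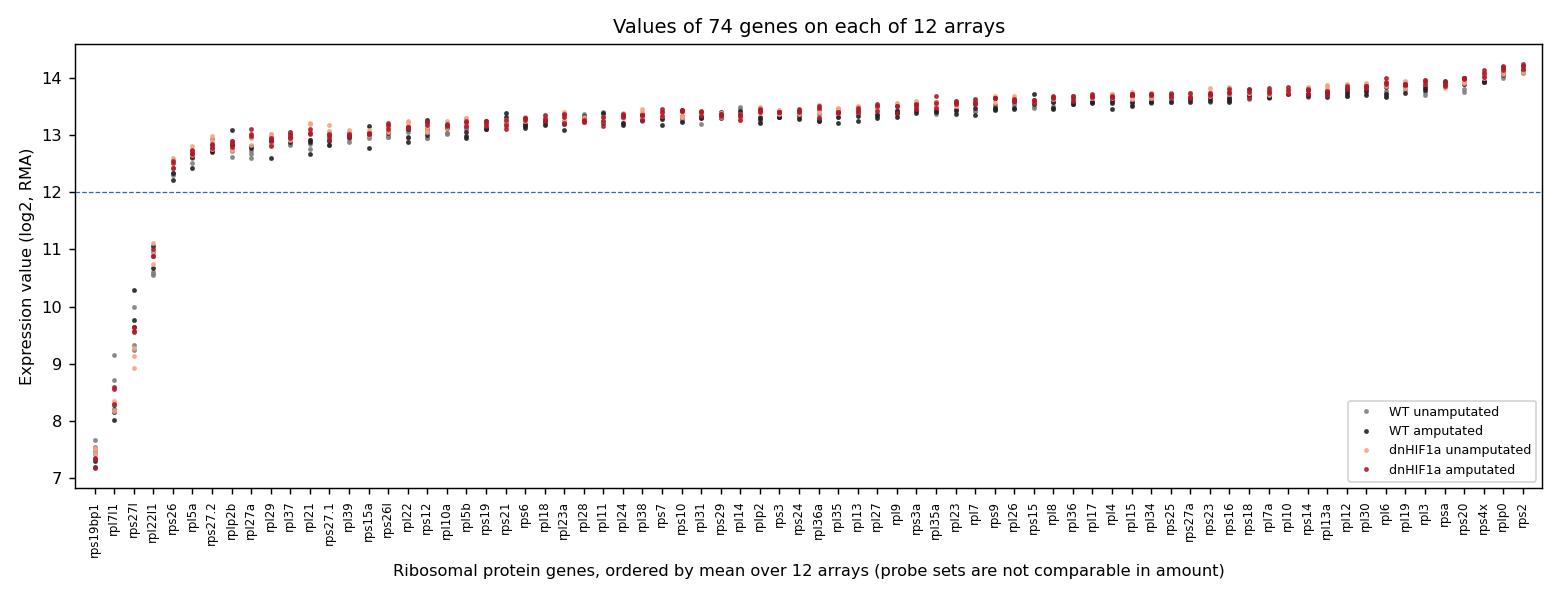
Log2 RMA value (vertical axis) of each of the 74 genes on each of the 12 arrays, genes ordered by their mean and arrays coloured by group, with a dashed line at 12. The values of 70 genes lie between 12.22 and 14.24 with little spread, and 4 genes lie below the line.

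In WT hearts 2 of the 74 genes passed the test after amputation, both under the line of 12, and the differences of the 70 genes above it were small. The dim rps27l differed by 0.38 without being called. The gene rpl22l1 was called higher and rpl7l1 lower (limma, adjusted p under 0.05 over all probe sets), while the same test called 22.8% of all probe sets, 11.0% higher and 11.8% lower. The median difference, amputated minus unamputated, was 0.005 log2 units for the 74 genes and -0.053 for all probe sets, with 40 genes above 0 and 33 below. Among the 70 bright genes none was called in this comparison (2 had an unadjusted p under 0.05), and their differences lay between -0.13 (rpl5b) and 0.19 (rpl27a). The 95% intervals of these 70 reached no further than -0.29 and 0.37, so changes beyond 0.5 log2 units, 1.41-fold, lay outside the interval of each of them. Other bright probe sets were less flat: of the other 145 probe sets with means of 12 or more, 39 (26.9%) were called, and their differences ran from -0.57 to 2.43.

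The median of the 74 genes stayed between -0.04 and 0.032 when any single array was left out. For 5 genes the 3 amputated WT values all lay above the 3 unamputated ones and for 3 genes all below, where the shares over all probe sets were 14.6% and 21.1%. A fit with the red blood cell marker mean as a covariate gave a median of -0.011 for the 74 genes and called none of them (limma, 0 with an unadjusted p under 0.05), while it called 3.59% of all probe sets. That mean did not overlap between unamputated (7.12 to 7.50) and amputated WT arrays (7.90 to 8.70). In WT the fit therefore separates the covariate from amputation only poorly, and a lost call does not show what the difference came from.

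In dnHIF1a hearts none of the 74 genes passed the test after amputation. The differences of the 70 bright genes were again small, from -0.13 to 0.11, while the dim rps27l differed by 0.48 without being called. There 1 gene had an unadjusted p under 0.05, and limma called 9.75% of all probe sets, 5.66% higher and 4.09% lower. The median difference was -0.0067 log2 units, beside -0.013 for all probe sets, with 32 genes above 0 and 40 below. The 3 smallest p-values belonged to rps27l, rps19bp1 and rps27.1, a small subunit gene with a difference of -0.13 (adjusted p = 0.304). For 4 genes the amputated dnHIF1a values all lay above the unamputated ones and for 8 all below, against 14.7% and 15.8% of all probe sets.

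The amputation responses of both lines were set against each other by their difference, dnHIF1a minus WT, which was called for none of the 74 genes (2 with an unadjusted p under 0.05) and for 2.24% of all probe sets, 0.884% higher and 1.35% lower (limma). Its median was -0.012 log2 units, and the 70 bright genes lay between -0.15 (rps21, adjusted p = 0.507) and 0.083 (rpl5b). The 95% intervals of these 70 ran from -0.40 at the lowest to 0.29 at the highest.

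**Figure D2:**
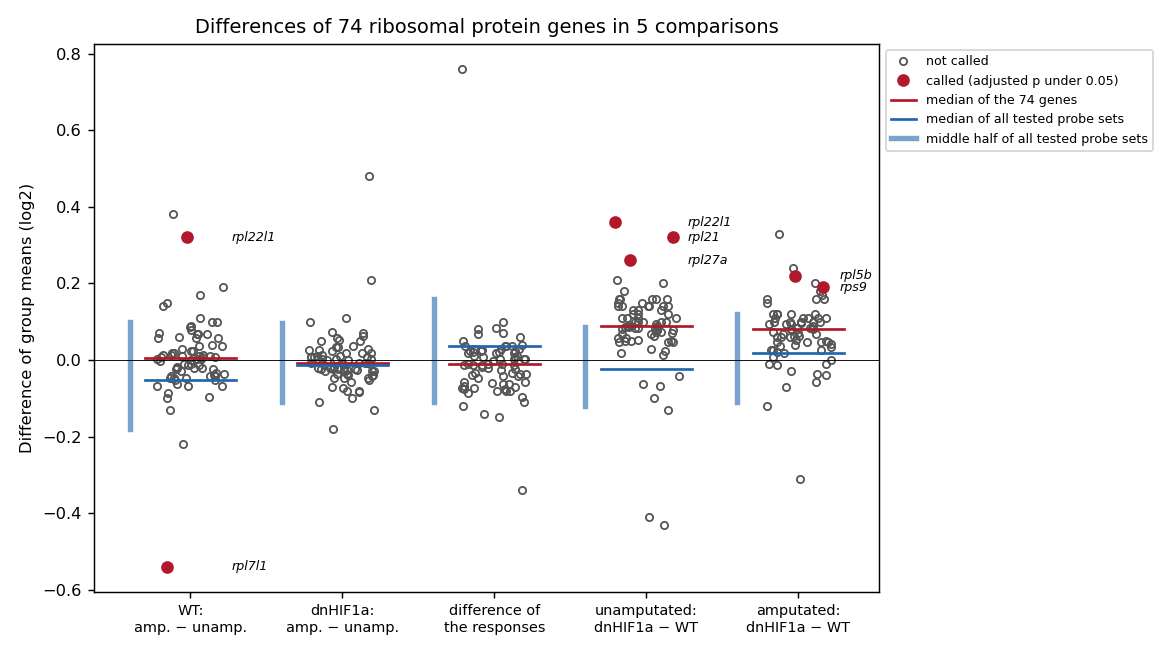
Differences of group means in log2 units (vertical axis) for the 74 genes, 1 point per gene, in the 5 comparisons. Red points are called and named, red lines are medians of the 74 genes, and blue lines and bars are the median and the range from the lower to the upper quartile of all tested probe sets. In the amputation comparisons both medians lie near 0, and in the genotype comparisons the 74 genes centre at 0.09 and 0.08.

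The genes that varied most were the dim ones. The symbol rpl7l1 stands for a protein related to Rpl7 of the large subunit. Its probe set read 9.16, 8.72 and 8.21 in unamputated WT hearts, 8.16, 8.02 and 8.28 in amputated WT, 8.29, 8.17 and 8.35 in unamputated dnHIF1a, and 8.55, 8.60 and 8.30 in amputated dnHIF1a hearts. The unamputated WT arrays spread over nearly a unit and overlapped the amputated ones, while the other groups were tight. The WT difference was -0.54 ± 0.18 (SE, n = 3 per group, adjusted p = 0.0474 by limma), and the call was lost in 16 of 21 alternatives, with adjusted p-values from 0.00209 to 0.323. Without the first unamputated WT array, the highest of the 3, the difference was -0.31. In dnHIF1a hearts it was 0.21 (adjusted p = 0.554), and the responses differed by 0.76 ± 0.26 (adjusted p = 0.149), which was called in the fit without the third unamputated WT array (1.00, adjusted p = 0.014) and in no other alternative.

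The paralogs rpl22 and rpl22l1 encode closely related large subunit proteins, which in zebrafish embryos have opposing roles in the emergence of blood stem cells. Values of rpl22l1 were 10.57, 10.55 and 10.61 in unamputated WT, 10.95, 10.68 and 11.06 in amputated WT, 11.12, 10.75 and 10.95 in unamputated dnHIF1a, and 10.88, 10.88 and 11.01 in amputated dnHIF1a hearts. The unamputated WT arrays were the lowest and overlapped with none of the other 3 groups, which overlapped among themselves. After amputation rpl22l1 was higher in WT by 0.32 ± 0.11 (SE, adjusted p = 0.0489), a call lost in 13 of 21 alternatives, with adjusted p-values from 0.0138 to 0.61. With the red blood cell covariate the difference was 0.20 (adjusted p = 0.61). Between the unamputated lines it was higher in dnHIF1a by 0.36 ± 0.11 (adjusted p = 0.0466), lost in 12 of 21 alternatives, and in the amputated hearts the lines differed by 0.027 (adjusted p = 0.913).

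The brighter paralog rpl22 read 12.95, 13.09 and 13.06 in unamputated WT, 12.97, 12.88 and 13.11 in amputated WT, 13.23, 13.17 and 13.24 in unamputated dnHIF1a, and 13.12, 13.14 and 13.14 in amputated dnHIF1a hearts. In both conditions its dnHIF1a values lay above all WT values of that condition, and it was called in none of the 5 comparisons.

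The small subunit paralog rps27l, in human cells a target of p53, had the widest span of all 74 genes. It read 9.99, 9.24 and 9.32 in unamputated WT, 9.76, 9.65 and 10.29 in amputated WT, 9.14, 8.92 and 9.27 in unamputated dnHIF1a, and 9.55, 9.58 and 9.65 in amputated dnHIF1a hearts. In dnHIF1a all amputated values lay above all unamputated ones, whereas in WT the first unamputated array stood among the amputated ones. Neither response was called: the difference was 0.48 ± 0.19 in dnHIF1a (adjusted p = 0.15) and 0.38 ± 0.19 in WT (adjusted p = 0.174), and the responses differed by 0.10 (95% interval -0.49 to 0.69). In a fit to the dnHIF1a arrays alone, rps27l was called (adjusted p = 0.0134).

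The gene rps19bp1 encodes a nucleolar Rps19 partner that in human cells also acts on the deacetylase SIRT1. Its brighter probe set read 7.42, 7.54 and 7.66 in unamputated WT, 7.29, 7.48 and 7.19 in amputated WT, 7.42, 7.47 and 7.53 in unamputated dnHIF1a, and 7.35, 7.34 and 7.18 in amputated dnHIF1a hearts. The amputated values overlapped the unamputated ones in WT and lay below them in dnHIF1a, and the differences of -0.22 (adjusted p = 0.0994) and -0.18 (adjusted p = 0.257) were not called. A second, dimmer probe set of the gene, with values from 5.39 to 5.82, was called lower in both lines, by -0.23 in WT (adjusted p = 0.0373) and -0.30 in dnHIF1a (adjusted p = 0.0207). The mean of both was called lower in dnHIF1a (-0.24, adjusted p = 0.0419).

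**Figure D3:**
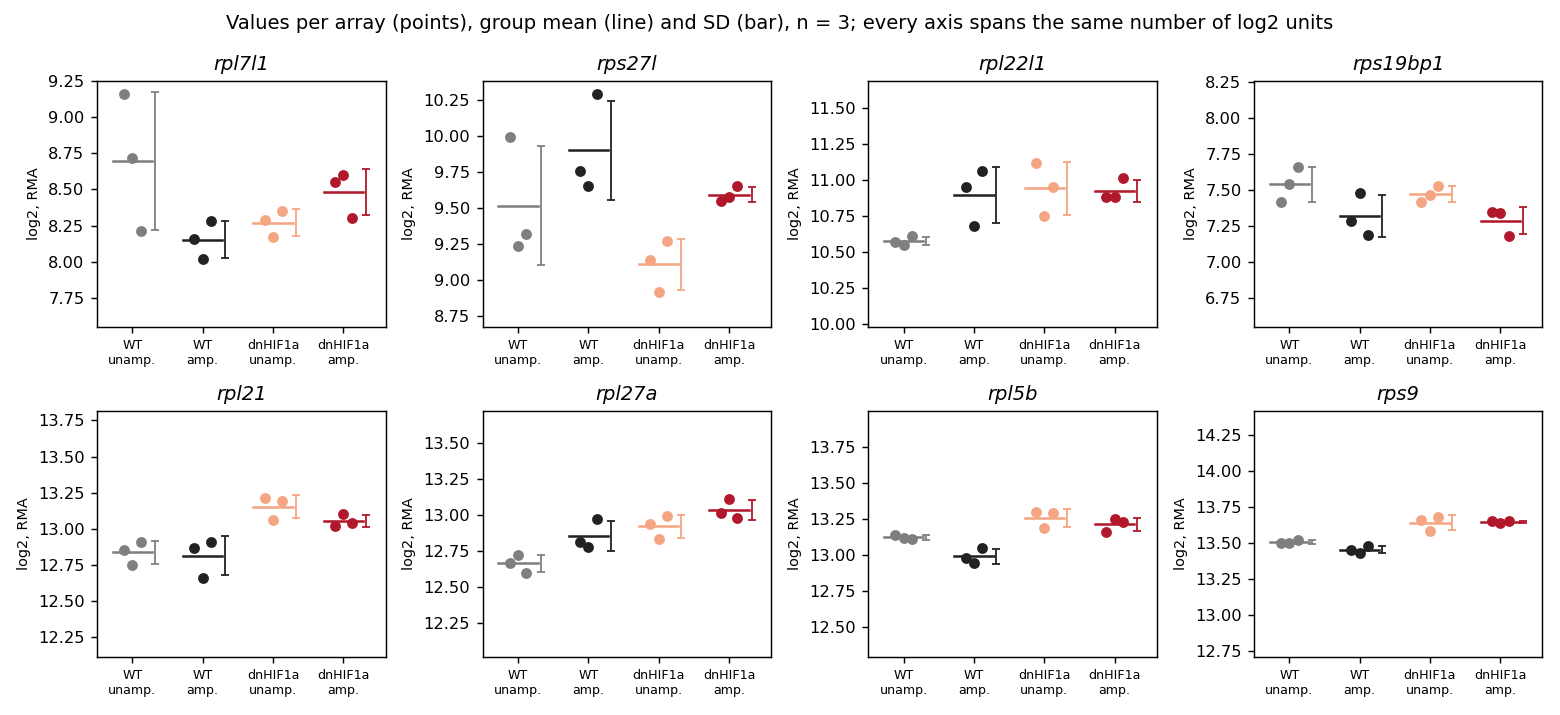
Log2 RMA values (vertical axes) of 8 genes on each array (points), with the mean (line) and SD (bar) of each group of 3 arrays; every panel spans the same number of log2 units around its own mean. The upper panels show the 4 dim genes, with wide groups for rpl7l1 and rps27l in unamputated WT, and the lower panels show rpl21, rpl27a, rpl5b and rps9, whose dnHIF1a values lie above the WT values of the same condition.

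Between the lines, the ribosomal protein genes stood slightly higher in dnHIF1a hearts. In unamputated hearts 67 of the 74 were above their WT mean and 7 below, with a median difference of 0.09 log2 units, beside -0.023 over all probe sets and 0.013 over the other 145 bright ones. Single genes rarely passed the test: 3 of 74 were called higher (rpl21, rpl22l1 and rpl27a) and none lower (limma; 15 higher and 1 lower at an unadjusted p under 0.05). Over all probe sets 11.4% were called, 5.82% higher and 5.56% lower. The groups did not overlap for 42 genes (56.8%) with dnHIF1a above WT and for 2 (2.70%) with dnHIF1a below. All probe sets had 12.4% and 14.5%, and the other bright ones 25.5% and 26.9%. Of those 145 bright ones, 16 were called higher and 14 lower. The 145 leave out only the probe sets of the 74 genes. They still hold the ribosomal protein genes rack1 and faua, and eef1b2, eef2b and pabpc1a from the list of elongation factors and other TOP mRNAs. The arrays of amputated hearts, which share no sample with the unamputated ones, gave a median of 0.08, beside 0.017 over all probe sets and 0.047 over the other bright ones, with 63 genes higher and 10 lower. There 2 of 74 were called higher (rpl5b and rps9) and none lower (limma; 9 higher and 0 lower at an unadjusted p under 0.05). Over all probe sets 12.9% were called, 6.15% higher and 6.75% lower. Groups did not overlap for 20 genes with dnHIF1a above WT and for none with dnHIF1a below, against 17.0% and 14.6% of all probe sets. The other 145 bright ones had 30.3% and 15.2%. In amputated hearts and at the deposited scaling, the share above WT was therefore no larger for the 74 genes than for the other bright ones, while the share below was smaller.

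Across both conditions 62 of the 74 genes (83.8%) were higher in dnHIF1a each time and 6 lower each time, while 41.4% of the other bright probe sets and 27.7% of all probe sets were higher each time. The mean of the 70 bright genes was 13.36, 13.37 and 13.38 on the unamputated WT arrays, 13.36, 13.32 and 13.46 on the amputated WT arrays, 13.48, 13.42 and 13.50 on the unamputated dnHIF1a arrays, and 13.43, 13.48 and 13.47 on the amputated dnHIF1a arrays. The unamputated lines did not overlap in this mean, whereas the third amputated WT array lay among the dnHIF1a ones. Over the other 145 bright probe sets the group means were 12.99 in unamputated and in amputated WT and 12.98 in unamputated dnHIF1a hearts, with no array below 12.97. The mean of amputated dnHIF1a hearts was the highest of the 4, by 0.012 above unamputated dnHIF1a and by 0.0028 above amputated WT hearts. The genes are not independent of each other: within groups, the median correlation between pairs of the 70 was 0.56 over the 12 arrays.

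The size of this offset depended on the scaling. After a further quantile normalization of the deposited values, the median was 0.047 in unamputated hearts, with 57 genes higher and 17 lower. The other 145 bright probe sets then had a median of -0.017. In amputated hearts the median was 0.032, with 52 higher and 22 lower, close to 0.029 over the other bright ones. Groups did not overlap, with dnHIF1a above WT, for 35.1% of the 74 in unamputated and 17.6% in amputated hearts. These shares were 13.2% and 17.1% over all probe sets, and 21.4% and 26.2% over the other bright ones. The array means of the 70 genes then ran from 13.39 to 13.40 in unamputated WT, 13.37 to 13.45 in amputated WT, 13.42 to 13.46 in unamputated dnHIF1a and 13.43 to 13.44 in amputated dnHIF1a hearts. Centring the arrays on their medians instead gave medians of 0.10 in unamputated and 0.08 in amputated hearts, with 67 and 63 genes higher. Groups then did not overlap, with dnHIF1a above WT, for 62.2% and 31.1% of the 74. These shares were 13.2% and 16.9% over all probe sets, and 26.9% and 28.3% over the other bright ones. With the deposited values, leaving out any 1 array gave medians of 0.074 to 0.12 and of 0.05 to 0.11. The number of genes called ranged over the alternatives from 0, in fits to the compared groups alone, to 7 in unamputated and 5 in amputated hearts, with a trended and robust prior. Macrophage and pan-leukocyte markers were called lower in dnHIF1a for 13 of 15 genes in unamputated and 10 of 15 in amputated hearts, beside 5.56% and 6.75% of all probe sets. The median differences between the lines were 1.17 and 0.64 for the 4 smooth muscle markers, of which 1 (smtnb) was lower in both conditions. Those of the 5 neutrophil markers were -1.17 and -0.43, with 0 and 1 of the 5 higher. The part of these markers in the offset was not tested. With the red blood cell marker mean as a covariate the medians were 0.082 and 0.09, and no gene was called (limma, 9 and 4 with an unadjusted p under 0.05). That fit called 8.92% of all probe sets between the unamputated and 6.22% between the amputated lines.

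**Figure D4:**
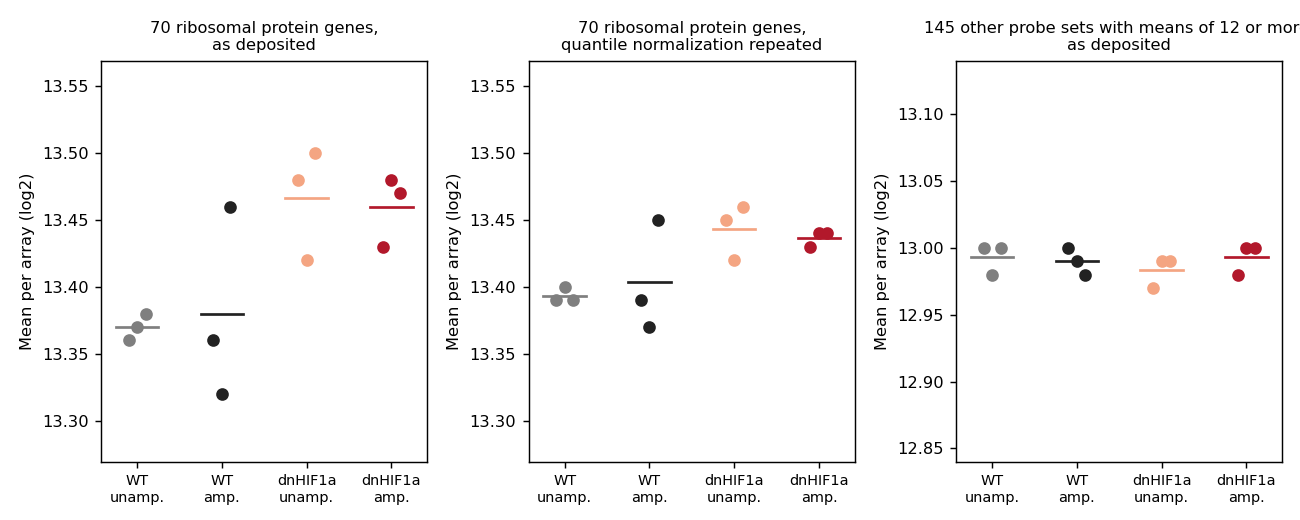
Mean log2 RMA value per array (points) and per group (lines) of the 70 bright genes as deposited (left) and after a repeated quantile normalization (middle), and of the other 145 bright probe sets (right); all panels span the same number of log2 units. The dnHIF1a arrays lie above the unamputated WT arrays in the left and middle panels, with a smaller step in the middle one, and the third amputated WT array lies among them.

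The large subunit genes that were called between the lines had these values. For rpl21 they were 12.85, 12.75 and 12.91 in unamputated WT, 12.87, 12.66 and 12.91 in amputated WT, 13.21, 13.06 and 13.19 in unamputated dnHIF1a, and 13.02, 13.10 and 13.04 in amputated dnHIF1a hearts. All 6 dnHIF1a values exceeded all 6 WT values. The difference was 0.32 ± 0.081 (SE, adjusted p = 0.0235 by limma) in unamputated hearts, a call lost in 6 of 21 alternatives, and 0.24 ± 0.081 (adjusted p = 0.0725) in amputated hearts. A second rpl21 probe set at 3.64 to 3.95, far dimmer, differed by 0.073 (adjusted p = 0.653).

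Values of rpl27a were 12.67, 12.72 and 12.60 in unamputated WT, 12.81, 12.78 and 12.97 in amputated WT, 12.94, 12.83 and 12.99 in unamputated dnHIF1a, and 13.01, 13.11 and 12.98 in amputated dnHIF1a hearts. The unamputated WT arrays were the lowest and overlapped with no other group, and in both conditions the dnHIF1a values lay above the WT values. Unamputated lines differed by 0.26 ± 0.076 (adjusted p = 0.0469), a call lost in 16 of 21 alternatives, and amputated lines by 0.18 (adjusted p = 0.149).

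The protein of rpl5b and rpl5a carries 5S RNA into the large subunit together with Rpl11, and in mammalian cells this trio binds the p53 regulator Mdm2. Values of rpl5b were 13.14, 13.12 and 13.11 in unamputated WT, 12.98, 12.95 and 13.05 in amputated WT, 13.30, 13.19 and 13.29 in unamputated dnHIF1a, and 13.16, 13.25 and 13.23 in amputated dnHIF1a hearts. All 6 dnHIF1a values again exceeded all 6 WT values, with the amputated WT arrays the lowest. In amputated hearts the lines differed by 0.22 ± 0.063 (adjusted p = 0.0381), lost in 11 of 21 alternatives, and in unamputated hearts by 0.14 (adjusted p = 0.204).

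Its near copy rpl5a ran from 12.43 to 12.80 and was not called. The partner rpl11 went the other way between the lines without being called, with 13.33, 13.38 and 13.41 in unamputated WT against 13.25, 13.25 and 13.31 in unamputated dnHIF1a hearts (difference -0.10). In amputated hearts rpl11 differed by -0.037.

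Among small subunit genes, rps9, whose protein lies near the decoding site, read 13.50, 13.50 and 13.52 in unamputated WT, 13.45, 13.43 and 13.48 in amputated WT, 13.66, 13.58 and 13.68 in unamputated dnHIF1a, and 13.65, 13.64 and 13.65 in amputated dnHIF1a hearts. Every dnHIF1a value lay above every WT value. The difference was 0.19 ± 0.059 (adjusted p = 0.0482) in amputated hearts, lost in 14 of 21 alternatives, and 0.13 ± 0.059 (adjusted p = 0.178) in unamputated hearts. The same order held for rps6, the S6 kinase substrate, with 13.18 on all 3 unamputated WT arrays, 13.13, 13.15 and 13.20 in amputated WT, 13.31, 13.24 and 13.29 in unamputated dnHIF1a, and 13.29, 13.29 and 13.27 in amputated dnHIF1a hearts. It was not called in any comparison.

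The laminin receptor gene rpsa was among the flattest of the 74, with 13.91, 13.88 and 13.91 in unamputated WT, 13.91, 13.85 and 13.95 in amputated WT, 13.85, 13.83 and 13.89 in unamputated dnHIF1a, and 13.92, 13.85 and 13.90 in amputated dnHIF1a hearts. Its groups overlapped in every comparison.

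By part of the ribosome, the median difference between the unamputated lines was 0.10 for the 40 bright large subunit genes, 0.087 for the 27 bright small subunit genes and 0.067 for the 3 stalk genes. In amputated hearts these medians were 0.095, 0.063 and 0.053, the last 2 close to the 0.047 of the other 145 bright probe sets. The stalk is the part of the large subunit that recruits elongation factors. Its base protein gene rplp0 read 14.07, 13.99 and 14.07 in unamputated WT, 14.12, 14.05 and 14.19 in amputated WT, 14.12, 14.07 and 14.14 in unamputated dnHIF1a, and 14.21, 14.14 and 14.17 in amputated dnHIF1a hearts, with overlap in all comparisons. The stalk genes rplp2 and rplp2b differed between the lines by 0.14 and 0.047 in unamputated hearts and by 0.16 and -0.07 in amputated hearts, none of them called.

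A further set of well studied genes was followed by name. Its large subunit genes were rpl22l1, whose calls and values are given above, and 14 others, rpl3, rpl4, rpl5a, rpl5b, rpl8, rpl10, rpl10a, rpl11, rpl13a, rpl22, rpl23, rpl26, rpl29 and rpl35a, several of them reference genes for PCR or genes mutated in human Diamond-Blackfan anaemia. With amputation these 14 others differed by -0.13 (rpl5b) to 0.10 (rpl10a) in WT and by -0.11 (rpl13a) to 0.037 (rpl35a) in dnHIF1a hearts, none called (limma, 0 with an unadjusted p under 0.05 in either). Between the lines the 14 ran from -0.10 (rpl11) to 0.18 (rpl22) in unamputated hearts, with none called (limma, 3 with an unadjusted p under 0.05). In amputated hearts they ran from -0.037 (rpl11) to 0.22 (rpl5b, adjusted p = 0.0381), with 1 called (rpl5b) and 2 with an unadjusted p under 0.05. The 9 small subunit genes were rpsa, rps3, rps6, rps14, rps18, rps19, rps24, rps26 and rps27a, the last of which encodes a fusion with ubiquitin. They differed by -0.047 (rps27a) to 0.067 (rps18) in WT and by -0.057 (rps14) to 0.033 (rpsa) in dnHIF1a hearts, none called and 0 with an unadjusted p under 0.05. Between the unamputated lines these 9 spanned -0.043 (rpsa) to 0.21 (rps26, adjusted p = 0.0907), with none called and 1 at an unadjusted p under 0.05 (limma). Between the amputated lines they spanned -0.013 (rpsa) to 0.17 (rps26, adjusted p = 0.168), again with none called and 1 at an unadjusted p under 0.05.

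Genes with several probe sets did not always agree. For rpl3 the standing probe set was not called between unamputated lines (0.16, adjusted p = 0.127), while a dimmer one at 13.19 to 13.51 was called higher (0.24, adjusted p = 0.0454). The same held for rps27.1, with 0.20 (adjusted p = 0.0958) for the standing probe set and 0.41 (adjusted p = 0.0153) for one with a mean of 11.63. Pairs of near copies such as rpl5a with rpl5b, rps27.1 with rps27.2 and rplp2 with rplp2b may share probes, which the deposited values do not show, so the split of signal within a pair is uncertain.

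Many genes that make ribosomes fell in WT hearts after amputation, and lists of genes that use ribosomes were mixed. The lists were chosen by function with earlier results of these arrays known. In WT hearts 49 of 78 ribosome biogenesis genes fell and none rose, where 11.8% of all probe sets fell, with a median of -0.44 log2 units and 75 below 0. In dnHIF1a hearts 6 of the 78 fell, where 4.09% of all probe sets fell, with a median of -0.15 and 61 below 0. That count ranged from 1, without the third unamputated dnHIF1a array, to 12, without the first unamputated WT array. The difference of the responses was called for none of the 78 (limma, 29 with an unadjusted p under 0.05), with a median of 0.30. The mean of the 78 genes was 7.37, 7.10 and 7.00 on the unamputated WT arrays, 6.71, 6.69 and 6.77 on the amputated WT arrays, 7.09, 6.94 and 7.10 on the unamputated dnHIF1a arrays, and 6.89, 6.99 and 6.80 on the amputated dnHIF1a arrays. The first unamputated WT array was the highest of all, the amputated WT arrays were the lowest, and without that first array 35 genes fell, with a median of -0.35. Leaving out other arrays gave 32 to 52. With the red blood cell marker mean as a covariate none of the 78 was called in WT (32 with an unadjusted p under 0.05), and the median was -0.40. Over all probe sets that fit called 3.59% in WT, against 22.8% without the covariate. Beside this fall in WT the median differences of the marker lists were 1.01 for red blood cells, 0.61 for macrophages and leukocytes, and 2.42 for epicardium and fibroblasts. In dnHIF1a hearts they were 0.077, 0.99 and 1.15, and the part of the last 2 lists in the fall was not tested.

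Among the biogenesis genes with the smallest p in WT were gnl3l, a nucleolar GTPase gene (-0.92 ± 0.13, adjusted p = 0.000323), and rrp7a, a small subunit processing factor (-0.58 ± 0.076, adjusted p = 0.000236). Both lost the call only with the red blood cell covariate, among 21 alternatives, and in WT that covariate did not overlap between the groups. Of 11 genes of the RNA polymerase I machinery, which transcribes the large ribosomal RNA, 3 were called lower in WT and 1 in dnHIF1a hearts. Over all probe sets 11.8% and 4.09% were lower, and the medians of the 11 genes were -0.14 and 0.01. The subunit gene polr1c, shared with RNA polymerase III, averaged 6.77 ± 0.18 (SD, n = 3) in unamputated and 5.88 ± 0.11 in amputated WT hearts. It fell by 0.89 in WT (adjusted p = 0.000184) and by 0.55 in dnHIF1a hearts (adjusted p = 0.00827), and was called in all 21 alternatives in both.

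Mitochondrial ribosomal proteins, which serve the separate ribosome of that organelle, fell for 24 of 59 genes in WT and 6 of 59 in dnHIF1a hearts and rose for none, with medians of -0.24 and -0.11, where 11.8% and 4.09% of all probe sets fell. Leaving out 1 array gave 18 to 29 in WT and 2 to 8 in dnHIF1a hearts, the 2 without the first unamputated or without the first or the third amputated dnHIF1a array. With the red blood cell covariate none of the 59 was called in WT (median -0.13, 6 with an unadjusted p under 0.05). Over all probe sets that fit called 3.59% in WT. An example is mrpl3, with -0.41 in WT (adjusted p = 0.00086) and -0.35 in dnHIF1a hearts (adjusted p = 0.00485). Of 49 translation initiation factor genes, 1 rose and 13 fell in WT, and 5 fell in dnHIF1a hearts, beside shares over all probe sets of 11.0% higher and 11.8% lower in WT and 4.09% lower in dnHIF1a hearts. The medians were -0.10 and -0.083. With the red blood cell covariate none of the 49 was called in WT (limma, 12 with an unadjusted p under 0.05), beside 3.59% of all probe sets. Leaving out 1 array gave 10 to 14 lower in WT and 2 to 7 in dnHIF1a hearts, the 2 without the first or the third unamputated or the first amputated dnHIF1a array. The start site factor gene eif1axb fell in both, by 0.41 in WT (adjusted p = 0.00126, and 0.053 with the red blood cell covariate) and by 0.45 in dnHIF1a (adjusted p = 0.00127).

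Elongation factors and other genes with TOP mRNAs, 18 in all, had 2 higher and 2 lower calls in WT with amputation and 1 of each in dnHIF1a hearts, close to the shares over all probe sets (11.0% and 11.8% in WT, 5.66% and 4.09% in dnHIF1a). The medians were -0.087 and -0.067. The elongation factor gene eef2b rose in WT by 0.35 (adjusted p = 0.00794) and eef1e1, a gene of the tRNA synthetase complex, fell by 0.61 (adjusted p = 0.00361). Both WT calls were lost with the red blood cell covariate. The same 2 genes were those called in dnHIF1a hearts, eef2b by 0.28 (adjusted p = 0.045) and eef1e1 by -0.42 (adjusted p = 0.0474). These calls were lost in 11 and 10 of 21 alternatives. Between the lines this list stood on the same side as the ribosomal protein genes, with 5 of 18 called higher in unamputated dnHIF1a (median 0.15) and 7 of 18 in amputated dnHIF1a hearts (median 0.19), none lower, where 5.82% and 6.15% of all probe sets were higher. Leaving out 1 array gave 0 to 6 and 0 to 7, with 0 without the first unamputated and without the second amputated dnHIF1a array. With the red blood cell covariate 3 and 1 of the 18 were called, with medians of 0.14 and 0.17, beside 8.92% and 6.22% of all probe sets. The calls included eef2b in unamputated hearts (0.34, adjusted p = 0.0153) and eef1b2, a subunit of the factor that recharges eEF1A, in amputated hearts (0.26, adjusted p = 0.0142). In amputated hearts 37 of 49 initiation factor genes (median 0.12) and 38 of 59 mitochondrial ribosomal protein genes (median 0.087) were also higher in dnHIF1a. So were 10 of 11 RNA polymerase I genes (median 0.10), beside 53.8% of all probe sets. Between unamputated lines 32 of the 49, 24 of the 59 and 3 of the 11 were higher (medians 0.06, -0.07 and -0.07), beside 43.5% of all probe sets. Ribosomal protein genes under other names, faua and faub, which encode a fusion that releases Rps30, and rack1, a small subunit protein, were called in no comparison (limma). Of these faub had an unadjusted p under 0.05 in both amputation responses, with differences of -0.19 in WT (adjusted p = 0.0855) and -0.17 in dnHIF1a hearts (adjusted p = 0.194).

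**Figure D5:**
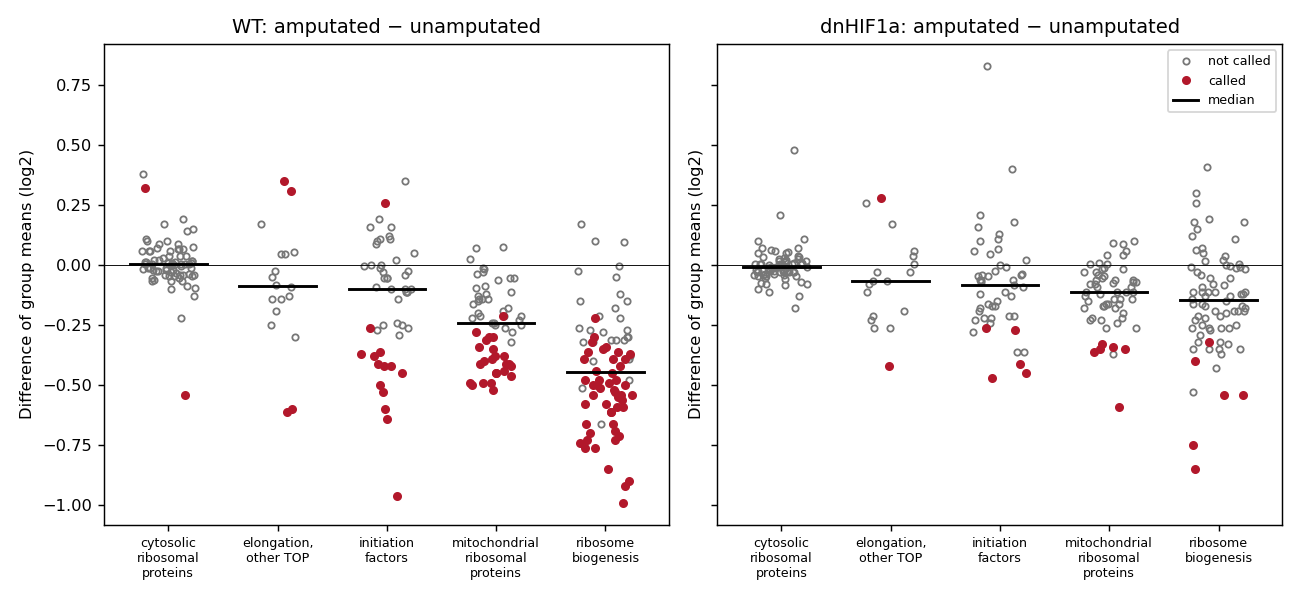
Differences of amputated minus unamputated group means in log2 units (vertical axis) for the 74 genes and 4 lists, 1 point per gene, in WT (left) and dnHIF1a (right) hearts, with called genes in red and medians in black. Most of the 74 genes cluster near 0 in both panels, while 49 of 78 ribosome biogenesis and 24 of 59 mitochondrial ribosomal protein genes are red in the left panel and 6 of each in the right panel.

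Between the lines the biogenesis list had its median at -0.19 in unamputated and 0.20 in amputated hearts, with 61 of 78 genes below 0 in the former and 63 above 0 in the latter. Of the 78, 6 were called higher and 7 lower in unamputated hearts and 7 higher and 4 lower in amputated hearts, beside 5.82%, 5.56%, 6.15% and 6.75% of all probe sets. Without the third unamputated WT array 20 were lower in unamputated hearts. Without the first 18 were higher in amputated hearts, and the unamputated median was -0.048. The gene riok2, an atypical kinase gene for late small subunit maturation, read 9.20, 9.69 and 9.48 in unamputated WT, 8.48, 8.74 and 8.59 in amputated WT, 11.43, 11.43 and 11.15 in unamputated dnHIF1a, and 10.37, 10.83 and 10.25 in amputated dnHIF1a hearts. All dnHIF1a values exceeded all WT values, and within each line the amputated values were the lower. The difference between the lines was 1.88 ± 0.16 in both conditions (adjusted p = 1.14e-05 and 1.47e-05). The related riok1 was higher by 0.51 and 0.66, and npm1b, one of the nucleophosmin genes, was lower by 0.76 ± 0.13 in unamputated hearts (difference -0.76, adjusted p = 0.00244) and by 0.93 in amputated hearts (difference -0.93, adjusted p = 0.000731). These calls held in all 21 alternatives of each comparison.

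Of 19 growth control genes upstream of translation, 1 was called higher and 1 lower in WT with amputation and 1 lower in dnHIF1a hearts. Over all probe sets these shares were 11.0%, 11.8% and 4.09%. Between the lines 2 were called higher and 1 lower in unamputated hearts, and 1 higher and 1 lower in amputated hearts. All probe sets there had 5.82%, 5.56%, 6.15% and 6.75%. Among the 19, ddit4, which encodes a hypoxia-inducible inhibitor of mTOR, was the one called in the difference of the responses, where 1.35% of all probe sets were called lower. It read 4.28, 4.22 and 5.19 in unamputated WT, 5.60, 6.11 and 6.57 in amputated WT, 6.24, 5.53 and 4.47 in unamputated dnHIF1a, and 4.30, 3.76 and 4.90 in amputated dnHIF1a hearts. The amputated WT arrays lay above the unamputated WT ones, while both dnHIF1a groups were scattered and overlapped. It rose in WT by 1.53 ± 0.42 (adjusted p = 0.0213, lost in 7 of 21 alternatives), and the responses differed by -2.62 ± 0.60 (adjusted p = 0.0421, lost in 13 of 20). The mTOR activator gene rheb fell with amputation in WT (-0.40, adjusted p = 0.0144) and in dnHIF1a (-0.49, adjusted p = 0.00993). The WT call was lost in 2 of 21 alternatives, without the third unamputated WT array and with the red blood cell covariate, and the dnHIF1a call in none. Between the lines rheb was called higher in unamputated (0.46, lost in 2 of 21 alternatives) and amputated dnHIF1a hearts (0.37, lost in 7). The other gene called higher in unamputated dnHIF1a hearts was tsc1a (0.52, adjusted p = 0.0403 by limma, lost in 12 of 21). The gene called lower in amputated dnHIF1a hearts was ddit4 (-1.77, adjusted p = 0.0162 by limma, lost in 5 of 21). Values of rheb, 4.38 to 5.44, lay under every array median. The gene myca was called lower in unamputated dnHIF1a hearts (-0.78, adjusted p = 0.00944 by limma), in all 21 alternatives. Its values were also low, 4.39 to 5.55, beside array medians of 5.55 to 5.59.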

How the data were processed

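Per the submitters' processing notes, which name RMA and limma without versions or roles, the authors made log2 values by RMA, 1 for each probe set and array. No filter is stated there and none was applied. The file holds 15617 probe sets: 115 are controls and 15502 entered the tests. The platform table names a single gene for 10795 of them, several for 135 and none for 4572, and an Entrez identifier tied 10711 to the zebrafish RefSeq table (84 not). All 74 members matched. Sequences and positions were not used here.

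Group means were fitted in limma 3.58.1 (R 4.3.3) over the 12 arrays together, with 8 residual plus 4.46 prior degrees of freedom. Moderated p-values are two-sided and were adjusted by Benjamini-Hochberg across the whole table for each of the 5 comparisons. Calls are at an adjusted p under 0.05. The number of arrays limits the precision. The procedure was tested on simulated data. It recovered 47.8% of simulated 1.5-fold changes in the difference of the responses and 74.6% to 86.6% in the other comparisons. For 2-fold changes these shares were 83.6% and 92.5% to 97.0%.

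The members and lists were chosen with earlier results of these data known. Named members are the called ones (up to 10 per direction), or the 3 with the smallest p where none was called, the 5 brightest and 5 dimmest, those whose probe sets disagree, and a set of 28 well studied symbols, of which 26 were among the 74. From each list up to 2 called genes per direction with the smallest p could be named. Processing alternatives changed the scaling (quantile normalization once more, or centring on array medians), the probe sets (without the dimmest 25%), the prior (trended and robust) or the array weights. Others fitted only the groups compared, or used replicate numbers as a block, the mean of all probe sets per gene, the red blood cell marker mean as a covariate, and leaving out each array.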

Additional observations from a re-analysis of the deposited data

Results flagged for a closer look

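The amputation responses of the lines differed for ddit4 by the interaction test in limma, by -2.62 ± 0.60 log2 units (dnHIF1a minus WT, adjusted p = 0.0421, lost in 13 of 20 alternatives). Its difference was 1.53 in WT, and in dnHIF1a hearts the group mean was 5.41 (SD 0.89) before and 4.32 (SD 0.57) after amputation. Values of ddit4 ran from 3.76 to 6.57 over the 12 arrays, beside array medians of 5.55 to 5.59. None of the 74 genes met this test (limma, 2 with an unadjusted p under 0.05).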

How the results depend on the processing

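The median difference of the 74 genes moved by less than the spread between replicates under all alternatives run, except between unamputated lines after repeated quantile normalization (0.047). Between amputated lines the median went from 0.08 to 0.032 under that normalization. The mean of the 70 bright genes had an SD of 0.069 over the amputated WT arrays, close to that median of 0.08. This yardstick could therefore hardly mark a move between the amputated lines. Leaving out 1 array gave medians of -0.04 to 0.032 (WT response), -0.028 to 0.0092 (dnHIF1a response), -0.047 to 0.031 (their difference), 0.074 to 0.12 (unamputated lines) and 0.05 to 0.11 (amputated lines). Calls of single genes were near the threshold and moved, and the cause was not tested. In the WT response, leaving out 1 array gave 0 to 2 called genes, 0 to 1 in each direction. Repeated quantile normalization gave 1 call and 0 higher, median centring and the replicate block 1 call and 0 lower, the trended and robust prior 2 higher, the mean of all probe sets 2 lower, and array weights, only the groups compared and the red blood cell covariate 0. In the dnHIF1a response, only the groups compared gave 1 higher and the mean of all probe sets 1 lower call. The difference of the responses had 0 to 1 calls when 1 array was left out. Between unamputated lines, leaving out 1 array gave 0 to 3 higher and 0 to 1 lower, the trended and robust prior 7, array weights 1, and only the groups compared and the covariate 0. Between amputated lines, leaving out 1 array gave 0 to 2, repeated quantile normalization 1, the trended and robust prior 5, and only the groups compared, the replicate block and the covariate 0. The labels do not say whether arrays of different groups that share a number belong together. Correlations of within-group deviations ran from -0.191 to 0.133 over 18 same-number pairs and from -0.153 to 0.134 over 36 different-number pairs. With so few arrays these values do not settle whether a number marks a shared day. No called gene changed sign under any alternative run. The values carry no measure of background or saturation, so differences of the brightest and dimmest probe sets are those of the measured signal.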
